A study of Mus musculus with 11 samples.

Results

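RNA from the small intestine of mice was sequenced, and 34 genes of the cell cycle and of DNA replication were followed across it. They were taken by symbol from the table of all libraries, which lists 24250 genes, and every one of the 34 was found there. Expression is given as FPKM, a fragment count divided by gene length and by the size of the library. Of the 34, 32 reached a mean of 1 FPKM over all libraries and entered the tests, among 10296 genes in all. The mitotic kinesin Cenpe (mean 0.989 FPKM) and the kinetochore protein Cenpf (mean 0.699 FPKM) fell short of that level and are given by their values alone.

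The study had 3 groups and 11 libraries. ND, read as normal diet, had 3 libraries, HFD, read as high-fat diet, had 4, and FSP, mice given Wu Ling San, the herbal powder with Poria whose English name gives the group its initials, had 4. The title of the series speaks of obese mice, and the labels name the preparation for FSP without its diet. The sources used here give neither strain, sex, age, dose or duration nor the stretch of intestine taken. Each library is labelled as its own sample, but no label says that each came from its own animal, so a p-value here may reflect technical as well as biological spread.

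The lining of the small intestine is renewed from its crypts, where stem cells and the rapidly dividing transit-amplifying cells above them supply the villi. Cells that enter division load the MCM helicase on replication origins, raise cyclin E and cyclin A, copy their DNA with the sliding clamp PCNA and with freshly made deoxynucleotides, and then pass through mitosis under CDK1, Aurora and Polo-like kinases until the anaphase-promoting complex destroys the mitotic cyclins. Most of these genes are transcribed in waves: E2F factors act at the promoters of the replication genes, and later a complex that reads the CHR element, often beside CCAAT boxes, acts at those of the mitotic genes.

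Libraries differed from each other in more than diet. HFD 1, FSP 1 and FSP 2 stood apart, with mean log2(FPKM + 1) of the 34 genes at 1.94, 2.62 and 2.18, against 3.26 to 3.46 in the ND libraries and 3.04 to 3.19 in the other HFD and FSP libraries. The depth recovered from the values ranged from 3.17e+07 to 3.81e+07 fragments, and the deepest library held 1.20 times the fragments of the shallowest, HFD 1. Mitochondrially encoded genes took 40.4% of the summed FPKM in HFD 1 and 12.9% to 26.3% in the other libraries. Epithelial markers were high everywhere but differed by group. The mean log2(FPKM + 1) of 6 markers lay between 8.86 and 8.97 in ND, 8.28 and 8.92 in HFD and 8.99 and 9.29 in FSP. Epcam passed as lower in HFD than in ND (log2 change -0.58) and as higher in FSP than in HFD (0.71). In 4 of the 6, every FSP library lay above every HFD library, against 8.52% of all tested genes. A list of 6 genes of the distal small intestine averaged 6.83 to 9.01 in ND, 3.81 to 4.33 in HFD and 5.26 to 7.62 in FSP. All 6 passed as lower in HFD than in ND, and Fabp6, which carries bile acids in the ileum, stood at 1.26 to 4.31 FPKM in HFD against 396.8 to 9822 FPKM in ND. In FSP against HFD, 3 of the 6 were higher. A list of 6 genes of the proximal small intestine averaged 3.80 to 4.92 in ND, 5.63 to 6.18 in HFD and 4.81 to 5.49 in FSP, and of the 5 tested, 4 were higher and 1 was lower in HFD than in ND. Whether the stretch of intestine taken had a part in the results that follow was not tested.

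The 34 genes had their low and high values in largely the same libraries, as the heat map of every library shows. In 30 of the 34, the 3 lowest libraries were HFD 1, FSP 1 and FSP 2. The exceptions were Mcm2, Rrm2, Ccne1 and Tubb5. Each gene had its lowest value in HFD 1 (29 genes) or in FSP 2 (5 genes). The highest value fell in an ND library for 29 genes, and elsewhere for Mcm2, Cdk1, Ccnb2, Plk1 and Ube2c. The mean of a list of crypt stem cell markers was low in the same 3 libraries. Without Cdca7, itself a cell cycle gene, the list of 9 averaged 2.79 to 3.197 in ND. It averaged 1.78 in HFD 1, between 2.75 and 3.07 in HFD 2, HFD 3 and HFD 4, 2.48 in FSP 1, 1.77 in FSP 2, and 2.96 and 3.32 in FSP 3 and FSP 4. The single markers were split in FSP 1. There Axin2, Rgmb, Lgr5 and Tnfrsf19 lay within the ND range, and Olfm4, Slc12a2, Ascl2, Smoc2 and Sox9 lay below it. None of the 8 of these 9 genes that were tested passed in any comparison by limma. In bulk tissue, fewer dividing cells and less of each RNA per dividing cell cannot be told apart.

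**Figure D1:**
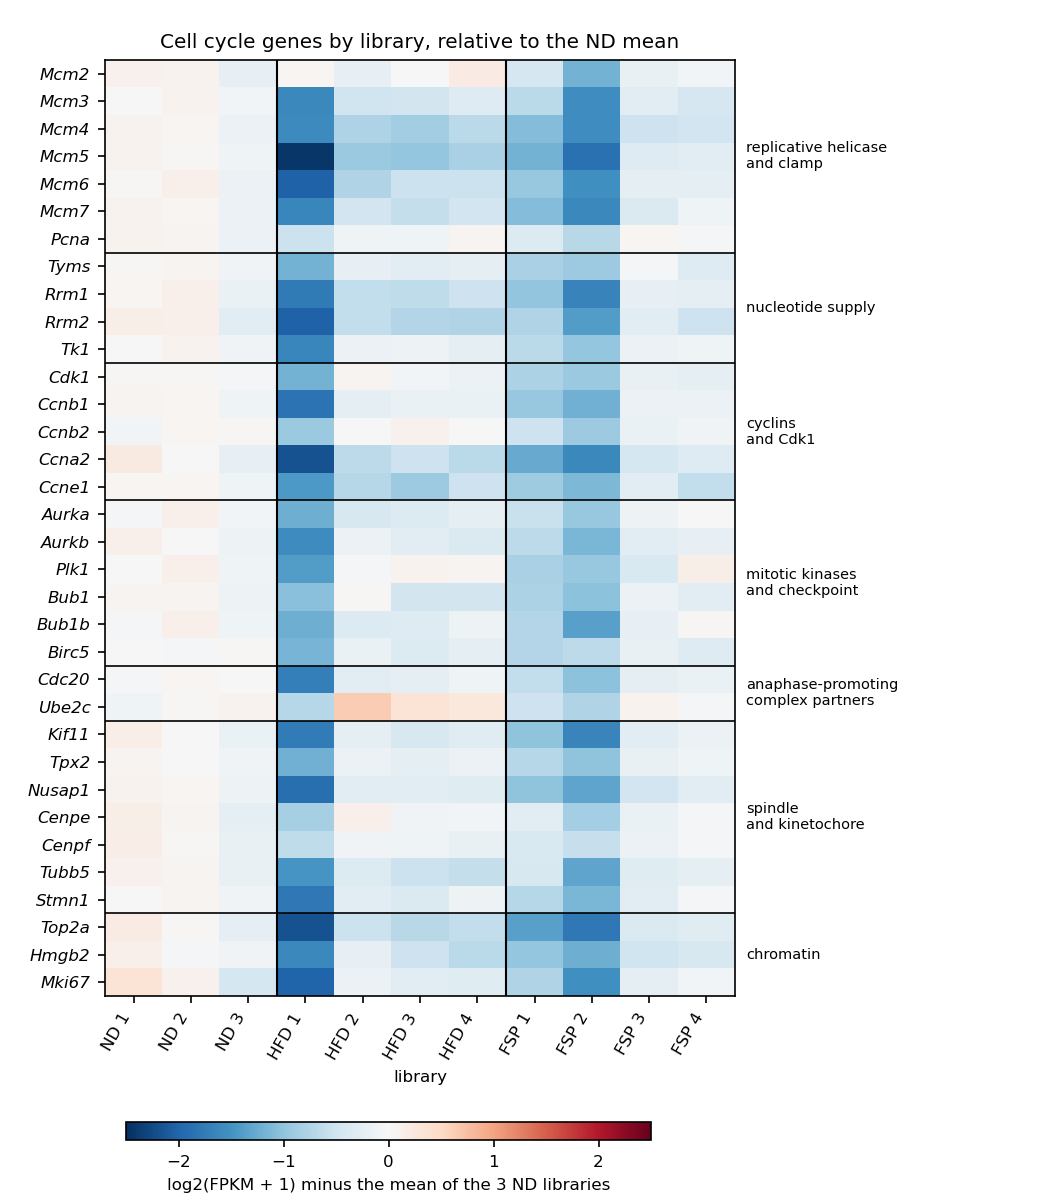
Heat map of the 34 genes, in rows grouped by role, over the 11 libraries in columns. Colour is log2(FPKM + 1) minus the mean of that gene over the ND libraries, so ND lies near the reference by construction. HFD 1, FSP 1 and FSP 2 are low in most rows, while Mcm2 keeps its ND level in HFD 1.

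HFD was first compared with ND, which asks what accompanied the high-fat diet. Genes for cyclin E1 and the helicase subunit MCM4, which act at the start of S phase, were lower in HFD, and most of the other genes had lower means that did not pass the test. Of the 32 tested genes, 2 were lower in HFD and none was higher, by limma on log2(FPKM + 1) at a Benjamini-Hochberg adjusted p under 0.05 over all 10296 tested genes. Over all tested genes, 15.1% were called lower and 5.36% higher, so the share of the 32 called lower was below that of all genes. With median-ratio scaling, which sets the typical gene equal between libraries, the split over all genes moved from 552 higher and 1557 lower to 1093 higher and 922 lower, and the same 2 genes of the list were called. The values of the list nevertheless leaned one way: 30 of 32 had a negative log2 change, with a median of -0.61 beside -0.21 for all genes, and with median-ratio scaling the medians were -0.40 and -0.01. Of the 32, 11 had an unadjusted limma p under 0.05.

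Ccne1 (ENSMUSG00000002068.16, chr7:38097984-38107534 in GRCm38) encodes cyclin E1, the partner of CDK2 at the G1/S boundary. It stood at 3.22, 3.22 and 2.79 FPKM in ND, 0.514, 1.47, 1.18 and 1.84 in HFD and 1.21, 0.861, 2.39 and 1.66 in FSP. Every HFD library and every FSP library lay below every ND library. The HFD mean was 1.25 ± 0.5599 FPKM (SD, n = 4) against 3.08 ± 0.247 (SD, n = 3), and the log2 change was -0.89 (SE 0.23), with an adjusted p of 0.0218 by limma.

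Mcm4 (ENSMUSG00000022673.5, chr16:15623897-15637400 in GRCm38), a subunit of the replicative helicase, read 8.94, 8.73 and 7.51 FPKM in ND, 2.1001, 4.51, 4.16 and 4.84 in HFD and 3.43, 2.202, 5.58 and 5.75 in FSP. Again no HFD or FSP library reached the lowest ND library. Its HFD mean was 3.905 ± 1.24 FPKM (SD, n = 4) against 8.395 ± 0.771 (SD, n = 3), a log2 change of -0.98 (SE 0.28) and an adjusted p of 0.0301 by limma. Single libraries decided these calls. Ccne1 was no longer called without ND 1 or without ND 2, and Mcm4 without ND 1, ND 2, ND 3, HFD 1 or HFD 3. Without HFD 1, the adjusted p by limma was 0.0606 for Mcm4, at a log2 change of -0.77, and 0.0410 for Ccne1, at -0.71. The next genes by p missed the threshold: the log2 change was -1.03 (SE 0.34) for Rrm2 (adjusted p 0.05204 by limma) and -1.28 (SE 0.43) for Mcm5 (adjusted p 0.0564).

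**Figure D2:**
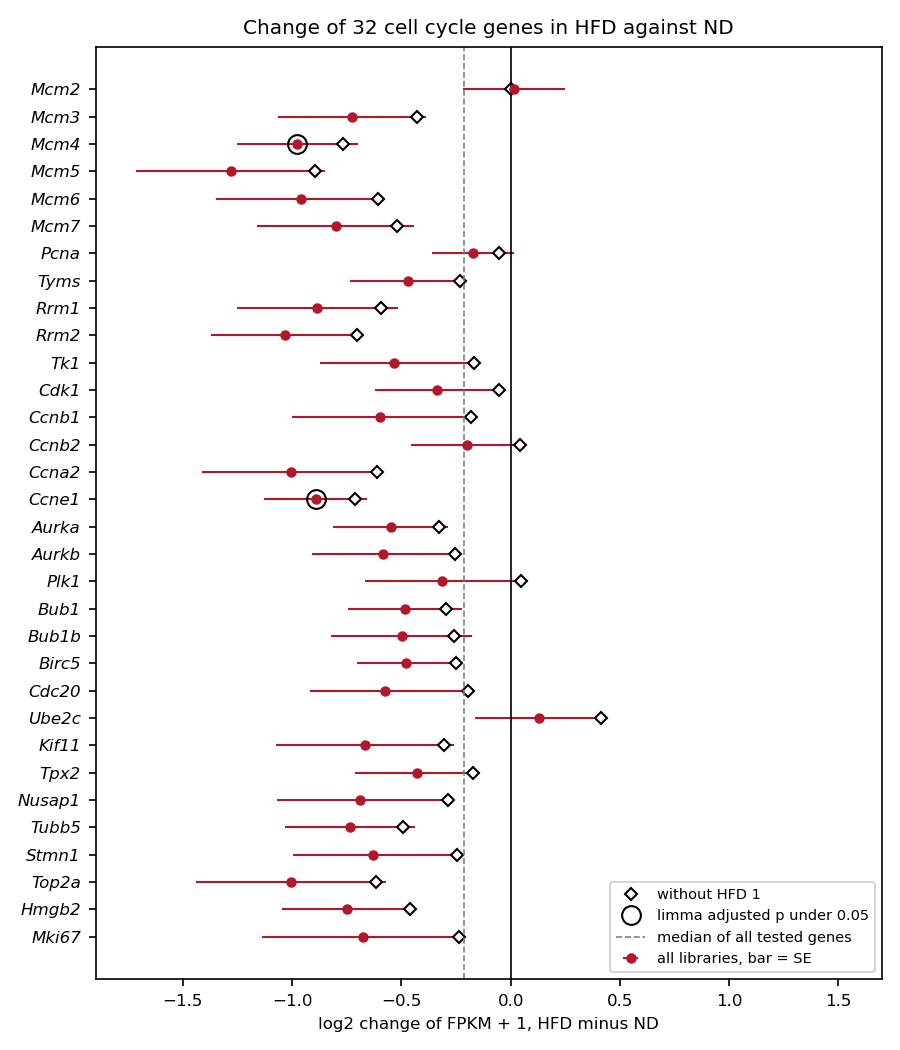
Log2 change of HFD against ND for the 32 tested genes on the log2(FPKM + 1) scale, ordered by role, with bars of 1 standard error; circled points passed the threshold in limma, open diamonds leave out HFD 1, and the dashed line is the median of all tested genes. Ccne1 and Mcm4 are the 2 that passed, and most points move toward 0 without HFD 1.

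Counted by separation instead of by the model, 24 of the 32 genes had every HFD library below every ND library, 75%, against 33.6% of all tested genes. With median-ratio scaling these shares were 43.8% and 19.2%. Without HFD 1, 24 genes were fully below and 1 was fully above, with 34.1% of all genes fully below and 13.4% fully above. Leaving out a library cannot undo a separation, so this count could not fall and does not test the part of HFD 1. The median log2 change of the 32 was smaller without that library, at -0.27, and 1 gene was called, as lower. The median of all tested genes was smaller too, at -0.13 against -0.21, and 1055 of all 10296 were called lower. The distal intestine list likewise put every HFD library below every ND library, and its part in these values was not tested.

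The helicase and clamp genes had a median log2 change of -0.80 between HFD and ND, and -0.52 without HFD 1. MCM2 to MCM7 form the ring that unwinds DNA at the fork, and PCNA holds the polymerase there. Mcm5 stood at 10.3, 9.74 and 8.76 FPKM in ND, 0.958, 4.59, 4.404 and 5.07 in HFD and 3.68, 1.92, 7.48 and 7.78 in FSP. The HFD libraries were all below the ND libraries, and HFD 1 was the lowest. Mcm6 read 14.4, 15.4 and 12.6 FPKM in ND, 2.69, 7.996, 9.4004 and 9.39 in HFD and 6.87, 4.19, 11.9 and 11.9 in FSP, with the same separation of HFD from ND. Mcm3 (-0.73, SE 0.34) and Mcm7 (-0.80, SE 0.36) were also separated, but neither passed the threshold. Mcm7 read 13.95, 13.6 and 11.8 FPKM in ND, 3.52, 9.07, 8.34 and 9.05 in HFD and 5.61, 3.62, 9.98 and 12.002 in FSP.

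Mcm2, of the same ring, did not have these lower values in HFD. It read 9.34, 9.16 and 7.32 FPKM in ND, 8.86, 7.28, 8.64 and 10.02 in HFD and 6.15, 3.19, 7.45 and 8.14 in FSP, so that HFD and ND overlapped, and its log2 change was 0.01 (SE 0.23). Within each library, Mcm2 was 0.742 to 0.825 times the mean FPKM of Mcm3 to Mcm7 in ND. The ratio was 3.83 in HFD 1, 1.13, 1.32 and 1.41 in the other HFD libraries, 1.23 and 1.11 in FSP 1 and FSP 2, and 0.883 and 0.924 in FSP 3 and FSP 4. Every HFD and FSP library therefore lay above the ND range. This ratio was chosen after the values were seen and carries no test. The exons of Mcm2 overlap no other gene in the GENCODE M21 annotation. Pcna, by far the most abundant of the group, stood at 85.2, 84.5 and 72.1 FPKM in ND, 55.2, 74.2, 74.6 and 83.99 in HFD and 63.6, 49.6, 83.4 and 77.3 in FSP, and its groups overlapped, with a log2 change of -0.17 (SE 0.19). Copies of Pcna, Tyms, Ccnb1, Ccnb2 and Stmn1 are annotated elsewhere in the genome, and no source used here says how reads shared with them were counted.

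**Figure D3:**
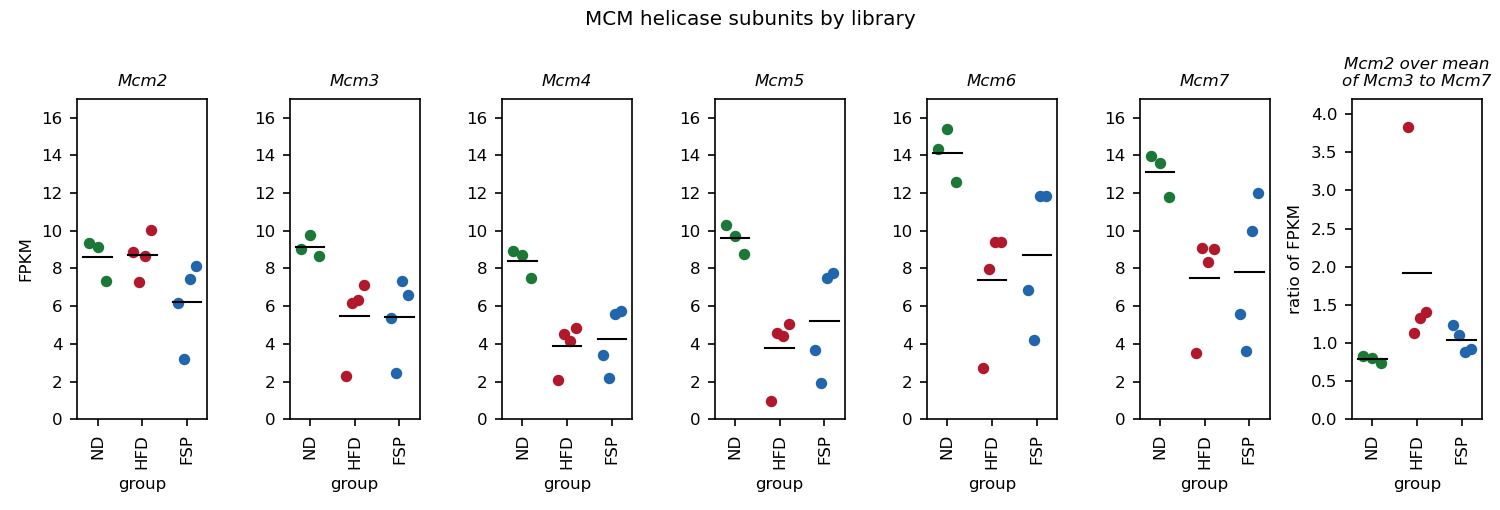
FPKM of the 6 helicase subunits (1 panel each) and, in the last panel, the ratio of Mcm2 to the mean FPKM of Mcm3 to Mcm7; points are the 11 libraries by group and bars are group means. Mcm3 to Mcm7 drop in HFD 1 while Mcm2 stays at 8.86 FPKM there, which puts the ratio at 3.83 against at most 0.825 in ND.

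The promoters of these genes hold different sets of the letters that cell cycle factors read, and 3 helicase windows and 2 mitotic ones are printed as examples. They were picked with the expression values known, so they show no link between motif and change. RefSeq windows (GRCm38.p6) of 250 bases before to 50 after the start were found for 29 of the 34 genes. None was found for Aurkb, Ccna2, Mcm4, Stmn1 or Tpx2. A gene with several windows was counted once. An E2F motif (TTTCCCGC, TTTCGCGC, TTTGCCGC or TTTGGCGC, either strand) was in 5 of the 29 windows, those of Mcm3, Mcm5, Mcm6, Mcm7 and Cdk1, and in 2.26% of all 32851 windows. The printed stretches run from 230 bases before to 30 after the start, 5′ to 3′ in the direction of the gene, with matches to the E2F, CHR and CCAAT motifs in capitals. Mcm5 lies at chr8:75109279-75109538 on the plus strand, Mcm6 at chr1:128359676-128359935 on the minus strand and Mcm2 at chr6:88898751-88899010 on the minus strand. The Mcm5 and Mcm6 stretches hold 2 and 3 E2F matches, of which one pair in each overlaps on opposite strands, and the Mcm2 stretch holds none, with 1 CHR match (TTTGAA) and 1 CCAAT match.
Mcm5: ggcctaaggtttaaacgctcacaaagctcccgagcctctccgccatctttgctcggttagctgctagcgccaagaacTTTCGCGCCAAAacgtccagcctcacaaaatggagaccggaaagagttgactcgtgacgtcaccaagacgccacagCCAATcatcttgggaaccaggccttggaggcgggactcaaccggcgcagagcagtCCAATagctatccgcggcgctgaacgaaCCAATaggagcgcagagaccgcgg
Mcm6: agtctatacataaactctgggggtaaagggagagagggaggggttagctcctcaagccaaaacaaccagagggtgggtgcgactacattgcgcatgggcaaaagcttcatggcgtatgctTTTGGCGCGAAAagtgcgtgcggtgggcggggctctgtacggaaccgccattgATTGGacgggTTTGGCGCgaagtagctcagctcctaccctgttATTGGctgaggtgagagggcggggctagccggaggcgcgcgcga
Mcm2: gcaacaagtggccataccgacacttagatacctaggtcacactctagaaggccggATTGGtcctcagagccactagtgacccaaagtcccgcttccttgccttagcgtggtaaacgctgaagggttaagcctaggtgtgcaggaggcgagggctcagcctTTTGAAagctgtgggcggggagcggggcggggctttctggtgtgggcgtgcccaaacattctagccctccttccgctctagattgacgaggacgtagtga

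The CHR element (TTTGAA or TTCGAA, either strand) together with CCAAT (either strand) was in the windows of 15 of the 29 genes, against 7.52% of all windows; CHR was in 19.2% of all windows, and CCAAT was in 24 of the 29 and in 37.4% of all windows. Both motifs were found for 2 of 11 genes, those of the helicase, clamp and nucleotide groups together with Ccne1. They were found for 13 of the 18 other genes. Ccnb2 (cyclin B2, chr9:70421525-70421784 on the minus strand) and Ube2c (the E2 ubiquitin enzyme of the anaphase-promoting complex, chr2:164769699-164769958 on the plus strand) are shown because their HFD values, apart from HFD 1, were not below the ND range. Their stretches hold 2 and 1 CHR matches and 3 and 6 CCAAT matches, some on the opposite strand, where CHR reads TTCAAA and CCAAT reads ATTGG. The capital run of 8 in the Ube2c stretch joins 2 overlapping CCAAT matches. Motif and change did not go together throughout. The windows of Top2a and Hmgb2 also hold both CHR and CCAAT, with log2 changes in HFD against ND of -1.01 and -0.75, and those of Rrm1, Rrm2 and Ccne1 hold no E2F match, with -0.89, -1.03 and -0.89. A match describes letters in a window and shows no binding.
Ccnb2: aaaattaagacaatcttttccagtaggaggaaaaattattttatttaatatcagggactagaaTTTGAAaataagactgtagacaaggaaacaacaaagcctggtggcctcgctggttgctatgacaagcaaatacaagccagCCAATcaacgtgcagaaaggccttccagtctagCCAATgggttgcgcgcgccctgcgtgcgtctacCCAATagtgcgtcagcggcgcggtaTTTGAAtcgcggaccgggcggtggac
Ube2c: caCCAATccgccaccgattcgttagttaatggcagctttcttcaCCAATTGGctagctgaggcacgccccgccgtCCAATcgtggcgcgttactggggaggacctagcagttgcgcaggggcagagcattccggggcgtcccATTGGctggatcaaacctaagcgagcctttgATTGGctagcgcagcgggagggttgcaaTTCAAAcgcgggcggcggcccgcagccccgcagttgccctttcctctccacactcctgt

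The 4 genes of nucleotide supply had a median log2 change of -0.71 in HFD against ND, all negative and all separated, and none passed the threshold. Rrm2, the S phase subunit of ribonucleotide reductase, stood at 8.98, 8.81 and 6.42 FPKM in ND, 1.21, 4.84, 4.43 and 4.33 in HFD and 4.35, 2.43, 6.44 and 5.25 in FSP. Its partner Rrm1 read 13.2, 13.9 and 11.2 FPKM in ND, 3.04, 7.96, 7.79 and 8.53 in HFD and 5.94, 3.33, 10.9 and 10.6 in FSP. HFD 1 was lowest for both, and the other HFD libraries still lay below ND. Tk1, thymidine kinase and the most abundant of these genes, stood at 12.3, 13.4 and 11.7 FPKM in ND, 3.35, 11.1, 11.3 and 10.5 in HFD and 7.44, 5.91, 11.1 and 11.5 in FSP, a log2 change of -0.53 (SE 0.34). The median log2 change of the 4 without HFD 1 was -0.41. Tyms, thymidylate synthase, ran from 0.952 FPKM in HFD 1 to 3.64 FPKM, its highest value.

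Among the cyclins, Ccnb2 and Ccna2 did not keep the same ratio across libraries. Ccna2, cyclin A2, which acts from S phase into mitosis, stood at 21.7, 18.3 and 15.8 FPKM in ND, 3.29, 11.4, 12.6 and 11.3 in HFD and 7.13, 5.37, 13.4 and 14.7 in FSP. HFD lay below ND in every library, and the log2 change of -1.005 (SE 0.41) had an adjusted p of 0.0986 by limma. Ccnb2, whose promoter letters are given above, read 12.8, 13.95 and 13.8 FPKM in ND, 6.66, 13.4, 14.7 and 13.6 in HFD and 9.105, 6.73, 11.98 and 12.7 in FSP. Apart from HFD 1, the HFD values of Ccnb2 lay within the ND range or, in HFD 3, above it, and its log2 change was -0.20 (SE 0.26). Ccnb2 was 0.589 to 0.868 times Ccna2 in the ND libraries, 2.02 times in HFD 1 and between 1.17 and 1.21 times in HFD 2, HFD 3 and HFD 4. In FSP the ratio was 0.867 to 1.28, overlapping ND. This pair was chosen after the values were seen and carries no test, and no such ratio was taken for Ccnb1. Cdk1, the mitotic kinase these cyclins activate, had a log2 change of -0.34 (SE 0.28), and Ccnb1, cyclin B1, one of -0.60 (SE 0.40). The exons of Ccna2 share 510 bases, 12.5% of their length, with Exosc9 on the other strand, and no source used here says whether strand was used in the counting.

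The 6 genes of mitotic kinases and the spindle checkpoint had a median log2 change of -0.49, and -0.26 without HFD 1. None passed the threshold. Plk1, Polo-like kinase, had the highest mean and stood at 7.101, 7.88 and 6.61 FPKM in ND, 2.13, 6.998, 7.75 and 7.599 in HFD and 3.66, 3.23, 5.296 and 8.01 in FSP. Outside HFD 1, the HFD values lay within the ND range. Aurkb, the kinase of the chromosomal passenger complex, had the largest change of the 6, -0.59 (SE 0.33), with 6.805, 6.17 and 5.61 FPKM in ND, 1.399, 5.497, 4.99 and 4.61 in HFD and 3.53, 2.25, 4.87 and 5.21 in FSP. Its partner Birc5 (survivin, -0.48, SE 0.23), Aurka (Aurora A, -0.55, SE 0.26) and the checkpoint kinases Bub1 (-0.48, SE 0.26) and Bub1b (-0.50, SE 0.32) completed the group.

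Of the partners of the anaphase-promoting complex, neither passed. Ube2c stood at 28.9, 31.8 and 33.3 FPKM in ND, 18.6, 49.3, 39.8 and 37.7 in HFD and 21.6, 18.2, 33.2 and 30.7 in FSP. HFD 2, HFD 3 and HFD 4 lay above every ND library and HFD 1 below, and the log2 change was 0.13 (SE 0.29). Without HFD 1, Ube2c was the 1 gene of the 32 fully above ND, as 13.4% of all tested genes were, and its log2 change was 0.41. Cdc20, which activates the complex in mitosis, read 9.26, 9.93 and 9.399 FPKM in ND, 2.24, 7.79, 7.96 and 8.83 in HFD and 5.89, 4.201, 8.01 and 8.44 in FSP, with every HFD library below ND. Set against Top2a in the same library, Ube2c was 1.55 to 2.46 times as high in ND, 3.71 to 6.70 times in HFD and 2.40 to 4.64 times in FSP. This ratio too was chosen after the values were seen. The exons of Ube2c share 592 bases, 22.8% of their length, with Tnnc2 on the other strand, and reads from the pair cannot be told apart if strand was not used.

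Spindle genes had a median log2 change of -0.67 over the 5 tested, and -0.29 without HFD 1. Stmn1, stathmin, which destabilises microtubules, was the most abundant, at 62.1, 64.7 and 58.1 FPKM in ND, 17.2, 51.5, 48.03 and 56.3 in HFD and 37.2, 27.5, 50.7 and 60.1 in FSP. Tubb5, a beta tubulin, stood at 60.03, 58.6 and 48.7 FPKM in ND, 19.4, 43.5, 38.1 and 36.4 in HFD and 42.003, 21.5, 45.1 and 47.6 in FSP, the largest change of this group (-0.74, SE 0.30, adjusted p 0.0968 by limma). Both were separated between HFD and ND. Kif11, the kinesin that pushes the spindle poles apart, stood at 6.497, 5.66 and 4.901 FPKM in ND, 0.979, 4.69, 4.05 and 4.42 in HFD and 2.32, 1.12, 4.52 and 5.05 in FSP, a log2 change of -0.67 (SE 0.41) in HFD against ND. The spindle proteins Nusap1 and Tpx2 had log2 changes of -0.69 (SE 0.38) and -0.43 (SE 0.28), and none of these 3 genes passed. Cenpe ran from 0.236 to 1.48 FPKM and Cenpf from 0.2404 to 1.16 FPKM, with HFD and ND overlapping in both.

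The 3 chromatin genes had a median log2 change of -0.75. Hmgb2, a DNA-bending chromatin protein, stood at 60.5, 54.6 and 52.3 FPKM in ND, 17.6, 48.4, 38.6 and 34.7 in HFD and 28.1, 23.2, 39.3 and 41.9 in FSP. Top2a, the topoisomerase that untangles sister chromatids, stood at 18.7, 16.4 and 13.5 FPKM in ND, 2.78, 10.7, 9.48 and 10.2 in HFD and 5.64, 3.91, 12.3 and 12.8 in FSP. In both, each HFD library lay below each ND library, and neither passed the threshold (adjusted p 0.0909 and 0.116 by limma). Mki67, which encodes the proliferation antigen Ki-67, read 11.004, 9.295 and 6.004 FPKM in ND, 1.37, 7.66, 6.93 and 6.73 in HFD and 4.66, 2.27, 7.18 and 8.05 in FSP. Its HFD values overlapped ND, and its log2 change of -0.68 (SE 0.46) was not past the threshold.

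FSP was then compared with HFD, which asks what accompanied the preparation. None of the 32 genes passed in limma, where 0.913% of all tested genes were called lower and 2.83% higher. Over all genes, 291 were higher and 94 lower, and with median-ratio scaling 180 and 167. The lowest adjusted p among the 32 was 0.263, for Mcm2, at a log2 change of -0.48 (SE 0.22), and this was the 1 gene with an unadjusted limma p under 0.05. Ube2c (-0.43, SE 0.27, adjusted p 0.424), Rrm2 (0.30, SE 0.32, 0.671) and Mcm5 (0.38, SE 0.40, 0.675) followed. The standard errors of these differences, 0.22 to 0.40 log2 units in those 4 genes, leave changes of either sign within reach, so likeness of the groups is not shown.

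The sign of the median in this comparison was not stable. With all libraries the median log2 change of the 32 genes was 0.01, beside 0.12 for all genes, and 15 of 32 were negative. Without HFD 1, all 32 were negative with a median of -0.30, and again none passed. The median was also negative without FSP 3 (-0.13) and without FSP 4 (-0.13), with median-ratio scaling (-0.11), quantile normalization (-0.13) or rescaling without mitochondrially encoded genes (-0.07), and with the B cell (-0.12) or epithelial (-0.78) list as a term. None of the 32 had every FSP library on one side of every HFD library, where 2.30% of all tested genes were fully below and 8.52% fully above. Without HFD 1, 3 of the 32 were fully below, 9.38% against 4.39% of all genes, and with median-ratio scaling 1 was, 3.12% against 4.52%. In the mean log2 level of the list, FSP 3 and FSP 4 lay close to HFD 2, HFD 3 and HFD 4, at 3.15 and 3.19 against 3.04 to 3.11, while FSP 1 and FSP 2 lay at 2.62 and 2.18, between those libraries and HFD 1.

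FSP was finally compared with ND. The ND libraries are those used against HFD, and the HFD libraries those used against FSP, so the 3 comparisons are not independent. None of the 32 genes passed in limma, where 0.330% of all tested genes were called lower and 0.699% higher, and 6 of the 32 had an unadjusted limma p under 0.05. The lowest adjusted p were those of Mcm4 (-0.90, SE 0.28, 0.156), Ccne1 (-0.72, SE 0.23, 0.178), Hmgb2 (-0.77, SE 0.30, 0.255) and Mcm7 (-0.79, SE 0.36, 0.338). All 32 log2 changes were negative, with a median of -0.57 beside -0.07 for all genes. In 20 of the 32, every FSP library lay below every ND library, against 10.9% of all tested genes; with median-ratio scaling it was 23 of the 32, against 8.52%. Mcm2, Mcm7, Pcna, Rrm2, Plk1, Ube2c and Mki67 were among those whose FSP and ND libraries overlapped.

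Other genes of the same pathways were counted from 4 lists of 131 genes, 114 of them tested. Between HFD and ND, 4 were higher, 18 were lower and 92 did not pass in limma. These totals are near the background of 5.36% higher and 15.1% lower over all tested genes. Of 36 tested genes of origin licensing and the fork, 7 were lower. Rpa2, a single-strand binding protein, Mcm10 and Lig1, the replicative DNA ligase, were among the lower ones. Of 12 tested G1/S cyclins, kinases and E2F factors, 4 were lower: E2f2 (-0.9999, SE 0.18), Ccnd1, cyclin D1 (-1.74, SE 0.40), Mybl2 and Cdc25a. Of 50 tested mitotic genes, 2 were lower, Trip13 and Smc2.

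Genes that restrain the cycle moved both ways. Of 16 tested, 5 were lower and 3 higher in HFD than in ND. Cdkn2b, which encodes the CDK4 and CDK6 inhibitor p15, stood at 87.8, 85.8 and 76.4 FPKM in ND, 27.9, 42.9, 37.3 and 33.1 in HFD and 67.9, 67.1, 58.9 and 64.8 in FSP. HFD lay below both other groups in every library, and the mean fell from 83.3 ± 6.11 FPKM (SD, n = 3) to 35.3 ± 6.37 (SD, n = 4), a log2 change of -1.23 (SE 0.14) with an adjusted p of 0.000695 by limma. It was higher in FSP than in HFD, by 0.87 (SE 0.13) with an adjusted p of 0.00956 by limma. E2f5, a repressive E2F, was lower in HFD (-1.01, SE 0.16) and higher in FSP than in HFD (0.68, SE 0.15, adjusted p 0.0313 by limma). Both contrasts use the HFD libraries. The distal intestine list also had every HFD library below every ND and FSP library, and its part in these changes was not tested.

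Fzr1, the other activator of the anaphase-promoting complex, was lower in HFD than in ND (-0.67, SE 0.14), as were E2f4 and Cdkn1a. The antiproliferative genes Btg1 (0.68, SE 0.13) and Btg2 (0.76, SE 0.19) and the kinase inhibitor Cdkn1c (0.61, SE 0.12) were higher in HFD. Btg1 read 26.4, 26.3 and 24.996 FPKM in ND, 50.5, 44.4, 38.8 and 36.5 in HFD and 46.1, 41.5, 37.5 and 37.4 in FSP, so that every HFD and FSP library lay above ND, and it was the 1 gene of the 114 past the threshold in FSP against ND (0.62, SE 0.13, adjusted p 0.0446 by limma). Among the 114, Cdkn2b and E2f5 were the 2 that passed in FSP against HFD.

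**Figure D4:**
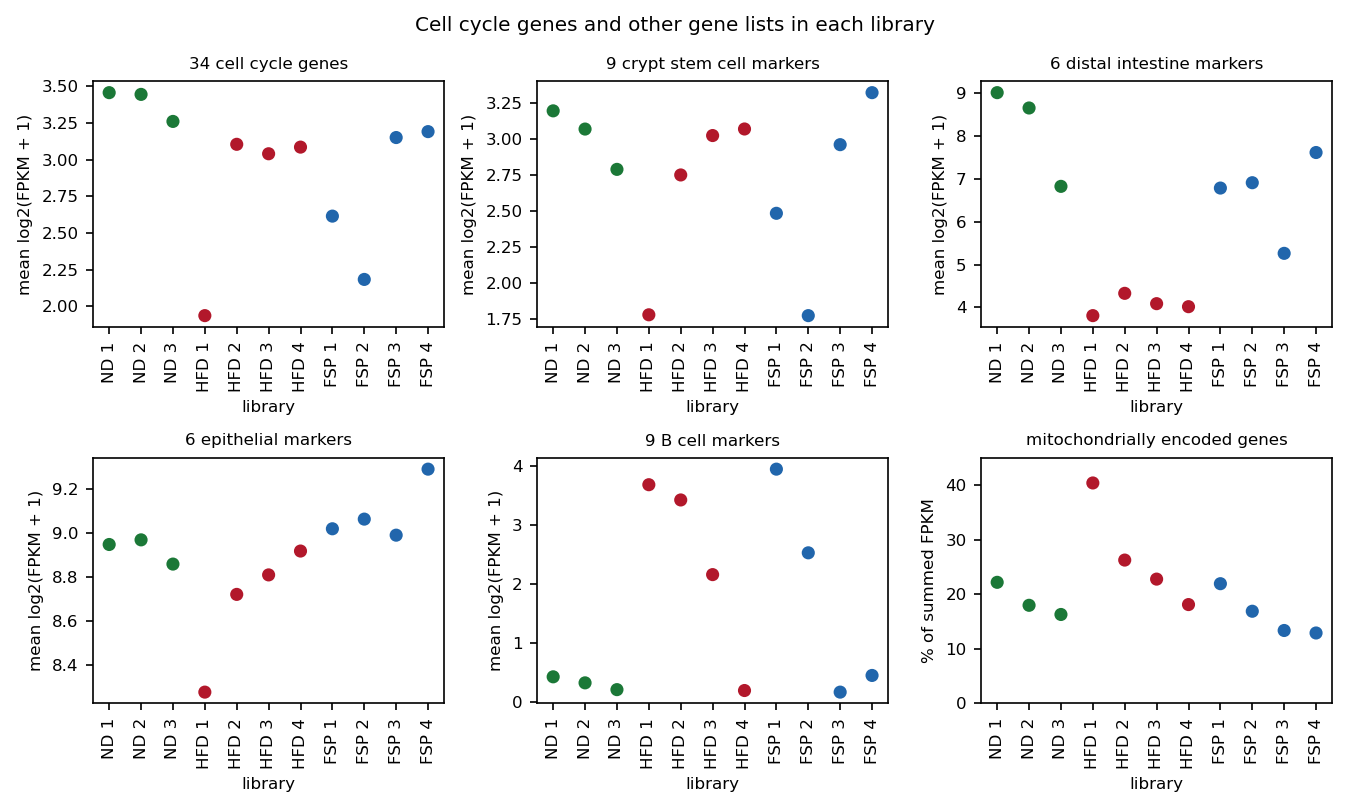
Mean log2(FPKM + 1) of gene lists in each of the 11 libraries, 1 panel per list, with points coloured by group. The means of the dividing-cell and crypt stem cell lists are low in HFD 1, FSP 1 and FSP 2, though not every crypt marker is low in FSP 1. The distal intestine list is lowest in HFD, and the B cell list separates libraries within the groups. The last panel gives the mitochondrial percent of summed FPKM.

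Markers of other cells that may divide or fill the tissue were read in the same libraries. In HFD against ND, 2 of 2 tested erythroid genes passed as higher, as did 1 gene each of the Paneth cell, adipocyte and villus enterocyte lists. Lower were 1 gene each of the plasma cell, germinal centre B cell and villus enterocyte lists. Over all tested genes, 5.36% were higher and 15.1% lower. No tested T cell or macrophage gene passed in any comparison. Across 9 B cell markers the mean log2(FPKM + 1) spanned 0.21 to 0.43 in ND and was 3.68, 3.42 and 2.16 in HFD 1 to HFD 3 and 0.20 in HFD 4, and 3.94 and 2.53 in FSP 1 and FSP 2 against 0.17 and 0.45 in FSP 3 and FSP 4. None of the 9 passed in any comparison in limma. Smooth muscle markers averaged 5.98 to 6.51 in ND, 4.52 in HFD 1, 3.997 in FSP 2 and 6.91 in FSP 1, and none of the 6 passed. The 3 libraries with the lowest values of the dividing-cell genes thus held B cell markers. HFD 2 and HFD 3, with B cell means of 3.42 and 2.16, held them too and did not share those low values. What part these cells had in the results was not tested beyond the fits with such a list as a term, which are given with the other settings.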

How the data were processed

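Small-intestine RNA of 3 groups of mice was sequenced in 11 libraries (ND 3, HFD 4, FSP 4), and groups and replicate numbers were read from the sample titles. Per the labels' protocols, TRIzol was used for extraction and a VAHTS Universal V6 kit for the libraries. Per the submitters' processing notes, reads went through HISAT2 and HTSeq, with fastp and R 3.2.0 also named, on build mm10. Which annotation was used, whether strand was used and how FPKM was computed is not given in the sources used here. As FPKM values the authors deposited numbers that are relative to each library's own total, so an RNA class that takes a large share lowers all other genes there. The single-library tables held the same values as the table of all libraries for every shared gene. Those of FSP listed the 24250 genes of that table, whereas those of ND and HFD listed 24294; whether FSP was tabulated apart cannot be told apart from the group.

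Depth was recovered from 380 single-exon genes, whose low values (up to 10 fragments) lay within 0.05 of a whole fragment in 88.7% to 94.6% of cases per library. In the shallowest library, 1 FPKM of a 1 kb gene is about 31.7 fragments. Gene lengths used by the authors are not known for the rest, so no count model was run.

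Values were taken as log2(FPKM + 1), genes with a mean of at least 1 FPKM over the 11 libraries were kept, and limma 3.58.1 (R 4.3.3) was fitted to the 3 groups together with an intensity trend. Tests were two-sided, with Benjamini-Hochberg adjustment over the 10296 genes and a threshold of 0.05. Fold changes on the log2(FPKM + 1) scale understate those of low genes. The fit was tested on simulated data. Gene positions and exon overlaps came from GENCODE M21, and promoter windows from RefSeq. The 34 genes, the pathway lists and the marker lists were chosen with earlier results of these data known. Every one of the 34 genes is accounted for. Named with values in each library were the gene with the highest mean and that with the largest change in each role, and per comparison those past the threshold or, where fewer than 4 passed, the 4 with the smallest p; from the pathway lists, up to 4 genes per comparison and direction with the smallest p past the threshold were named, and other names were added after their values were seen. Values of 2 genes of these lists are not reported here. Replicate numbers were checked for pairing and did not pair the libraries. Alternatives covered the pseudocount, the filter, scaling, the groups in the fit, a replicate block, marker terms and leaving out each library; a crypt stem cell term was added after the data were seen.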

Additional observations from a re-analysis of the deposited data

Results flagged for a closer look

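HFD 1 stood far below the other HFD libraries for 15 of the 34 genes. In each, its gap to the nearest HFD library, divided by the range of the 4, was above Dixon's 95% critical value of 0.829. The groups of 4 examined numbered 68 (HFD and FSP for each gene), and no other library was marked. Chance alone marks about 1 in 20 of independent groups. The 34 genes were read in the same libraries and were low together, so these marks are not separate events and that rate does not apply to them. Among the replication genes, the HFD 1 values were 0.958 FPKM for Mcm5, 3.52 for Mcm7, 0.952 for Tyms, 3.04 for Rrm1, 1.21 for Rrm2 and 3.35 for Tk1. Among the genes of mitosis and its cyclins, they were 1.61 FPKM for Ccnb1, 6.66 for Ccnb2, 3.29 for Ccna2, 2.13 for Plk1, 2.24 for Cdc20, 0.894 for Tpx2 and 1.51 for Nusap1. Top2a stood at 2.78 FPKM and Mki67 at 1.37 FPKM. Mcm2, at 8.86 FPKM, was not low in this library. HFD 1 also had the highest mitochondrial share of the FPKM total, 40.4%, and the lowest recovered depth, 3.17e+07 fragments; their part in these low values was not tested.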

How the results depend on the processing

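Of the 32 genes, 2 were called in HFD against ND, 0 without the filter, 0 with the B cell list as a term, 0 with the epithelial list as a term, 12 with the crypt stem cell list as a term (added after the data were seen) and 4 with a replicate block. The median log2 change of the 32 was -0.61, but -0.18, -0.12 and -0.29 with the B cell, epithelial and crypt stem cell terms, so the 12 calls came with smaller typical changes. For all tested genes the median was -0.21, and -0.15, -0.08 and -0.13 with the same terms. With that block 2 more helicase genes, Mcm5 and Mcm6, passed; the replicate numbers share only a number, since deviations of same-numbered libraries correlated from -0.0994 to 0.454 and not every library correlated best with its own number, and the block moved no other count of calls by over 1.5 times. Leaving out each library in turn gave 0 to 5 called, never the opposite direction. In FSP against HFD, 0 were called, 0 to 0 when libraries were left out, and 1 with the crypt stem cell term (Mcm5, higher). In FSP against ND, 0 were called, 0 to 0 when libraries were left out, 13 with the epithelial term and 1 with the crypt stem cell term (Mcm4, lower). Over all genes in HFD against ND, 2109 passed, 1695 without the filter, 1308 with the B cell term and 1139 with the epithelial term. With the replicate block 2357 passed, and with the crypt stem cell term 2984 did, 2173 of them lower. The calls thus rose over all genes in these 2 settings, and not in the list alone. Leaving out libraries gave 849 to 2678. In FSP against HFD, 385 passed, 117 without the filter, 76 with only those 2 groups fitted, 0 with the epithelial term, 1719 with the crypt stem cell term, and 48 to 458 when libraries were left out. In FSP against ND, 106 passed, 58 without the filter, 192 with quantile normalization, 164 with the B cell term, 591 with the epithelial term, 215 with the crypt stem cell term, and 13 to 201 when libraries were left out. The mean of the epithelial list was higher in every FSP library than in every ND and HFD library, so that term overlaps with the groups. The cause of the differences between settings was not tested. Single genes gave 727 values per comparison over the alternatives, and none crossed to a call in the opposite direction; Ccne1 was called in 17 of 22 alternatives (log2 change -1.35 to -0.56) and Mcm4 in 15 of 23 (-1.15 to -0.58). Depth limits mainly the lowest genes, Cenpe and Cenpf among them.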

Other observations

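Genes of replication and of mitosis were also compared within libraries. The mean log2(FPKM + 1) of the helicase and clamp genes minus that of the other members with a role in mitosis was 0.82 to 0.87 in ND, 0.45 to 0.76 in HFD and 0.48 to 0.81 in FSP, so that no HFD or FSP library reached the ND range. The same difference between the wider lists of licensing and fork genes and of mitotic genes was 0.52 to 0.55 in ND, 0.34 to 0.57 in HFD and 0.43 to 0.56 in FSP. There HFD 1, at 0.57, FSP 1, at 0.554, and FSP 3, at 0.5595, lay above the ND maximum of 0.553. HFD 2, HFD 3 and HFD 4, at 0.34, 0.39 and 0.43, lay below the ND range, as did FSP 2 and FSP 4, at 0.47 and 0.43. On the log2(FPKM + 1) scale an equal fold drop of all genes narrows such a difference, so it is not free of the overall level of dividing-cell RNA. Both measures were chosen after the values were seen and carry no test.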
